A study of Homo sapiens and Mus musculus with 13 samples.

Results

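The 10 genes described here encode interferon-inducible GTPases, and they were taken by name from the 55228 gene symbols of an RNA-Seq table of mouse mammary tumors. Igtp, Irgm1, Irgm2, Iigp1, Tgtp1 and Tgtp2 are immunity-related GTPases (IRGs), and Gbp2, Gbp3, Gbp6 and Gbp7 are guanylate-binding proteins (GBPs). They were listed by family and not by a threshold on a value, with earlier results of these data known, and all 10 had reads in every tumor. Of the 10, 9 had a mean of at least 0.5 FPKM and were tested between genotypes, and Gbp6 was below that level.

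Both families are among the most strongly induced genes when a mouse cell is exposed to interferon-gamma, which binds the receptor chains encoded by Ifngr1 and Ifngr2, activates the kinases Jak1 and Jak2, and works through transcription factors that include Irf1. The proteins gather on the membrane of vacuoles that hold intracellular parasites and bacteria and break that membrane. Among the IRGs, the GMS class (Igtp, Irgm1, Irgm2), named for a methionine in the nucleotide-binding loop, sits on the membranes of the cell itself and holds the effector GKS class (Iigp1, Tgtp1, Tgtp2), which has the usual lysine there, in its inactive state.

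The 6 tumors were mammary tumors of MMTV-PyVT mice, in which the promoter of mouse mammary tumor virus drives the polyoma virus middle T oncogene in mammary epithelium, so all 6 carried this transgene. There were 3 tumors of wild-type mice and 3 tumors of Trim11+/- mice, all mice being 3 months old. The sample titles number the tumors and do not say whether each came from a different mouse. The Trim11+/- mice had 1 allele of Trim11, a ubiquitin ligase gene, with exons 2 to 6 deleted and 1 intact allele. The labels give strain numbers from 634 to 639, a different one for each tumor. The methods name 1 PyVT strain with the number 634, crossed with Trim11+/- mice of another strain. Whether the other numbers mark strains is not stated. The 7 human cell line libraries of the study come from another species and are not used here.

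Libraries held between 8793199 and 11117125 reads. Trim11 was at 35.8, 36.3 and 39.2 FPKM in wild-type tumors 1 to 3 and at 24.0, 22.8 and 22.9 FPKM in Trim11+/- tumors 1 to 3, so the genotypes did not overlap and the targeted gene followed the labels (log2 fold change -0.65, SE 0.08, limma adjusted p = 0.199). The luminal epithelial markers Epcam, Krt8 and Krt18 were at 335 FPKM or more in every tumor. The sum of the 8 luminal markers was lowest in Trim11+/- tumor 3, at 1714 FPKM, and highest in Trim11+/- tumor 1, at 2242 FPKM, and Krt19 among them, named after its values were seen, was at 35.0 FPKM in Trim11+/- tumor 3. Wild-type tumor 1 and Trim11+/- tumor 3 stood apart from the other 4 libraries. Over gene counts, a chi-square per gene was between 12.3 and 22.2 for the 6 pairs among the other 4, and between 25.2 and 42.1 for the 9 pairs with either of them. Counts of calls are therefore also given without them.

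For the GTPase genes as a set, the levels were lower on average in Trim11+/- tumors, and no member passed the test between genotypes. Summed over the 10 genes the means were 96.2 ± 50.6 FPKM (SD, n = 3) in wild-type tumors and 52.3 ± 16.0 FPKM (SD, n = 3) in Trim11+/- tumors, so the difference was below the SD in wild type and above the SD in Trim11+/-. The log2 fold change (of FPKM + 1, Trim11+/- minus wild type) was negative for 9 of the 9 tested members, compared with 50.9% of the 17328 genes tested, and its median was -0.53, compared with -0.0048 for all genes. Tgtp1 and Tgtp2 passed the level filter only through wild-type tumors, which favors a negative sign. Their means were 1.11 and 0.911 FPKM in wild-type tumors and 0.335 and 0.291 FPKM in Trim11+/- tumors. At a mean of at least 1 FPKM, 7 members remained. All 7 were negative, with a median of -0.68, compared with -0.0029 for all genes at that level. A gene was called lower where wild-type tumors had at least 1.5 times the mean FPKM of Trim11+/- tumors with an unadjusted limma p under 0.05, and higher in the opposite case. By this rule 0 of the 9 members were lower and 0 were higher, while 1.87% of all genes tested were lower and 1.74% higher. The count of members at an unadjusted p under 0.05 was also 0, and the lowest p was 0.0720, for Igtp, while limma voom on recovered reads called 1 member lower, Tgtp2. After Benjamini-Hochberg adjustment the lowest p among members was 0.722, and 0.00577% of all genes, which is 1 gene, had an adjusted p under 0.05.

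The highest and the lowest tumor recurred from gene to gene, while the order between them changed. Wild-type tumor 2 was the highest for 10 of the 10 members, compared with 14.8% of all genes tested. The lowest was Trim11+/- tumor 3 for 8 members, compared with 20.9% of all genes, and wild-type tumor 1 for Tgtp1 and Gbp7. Summed over the 10 genes, wild-type tumors 1 to 3 had 51.4, 151 and 86.3 FPKM and Trim11+/- tumors 1 to 3 had 63.1, 59.9 and 33.9 FPKM. Wild-type tumors 2 and 3 were thus above the Trim11+/- tumors in the sum, and wild-type tumor 1 was below Trim11+/- tumors 1 and 2. For single genes, wild-type tumors 2 and 3 were both above all 3 Trim11+/- tumors for 8 of the 10 members (12.2% of all genes tested), and wild-type tumor 1 was below at least 2 Trim11+/- tumors for 7 (46.5% of all genes tested). Some of the gaps below Trim11+/- tumors were within counting error, as for Igtp and Gbp7.

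**Figure D1:**
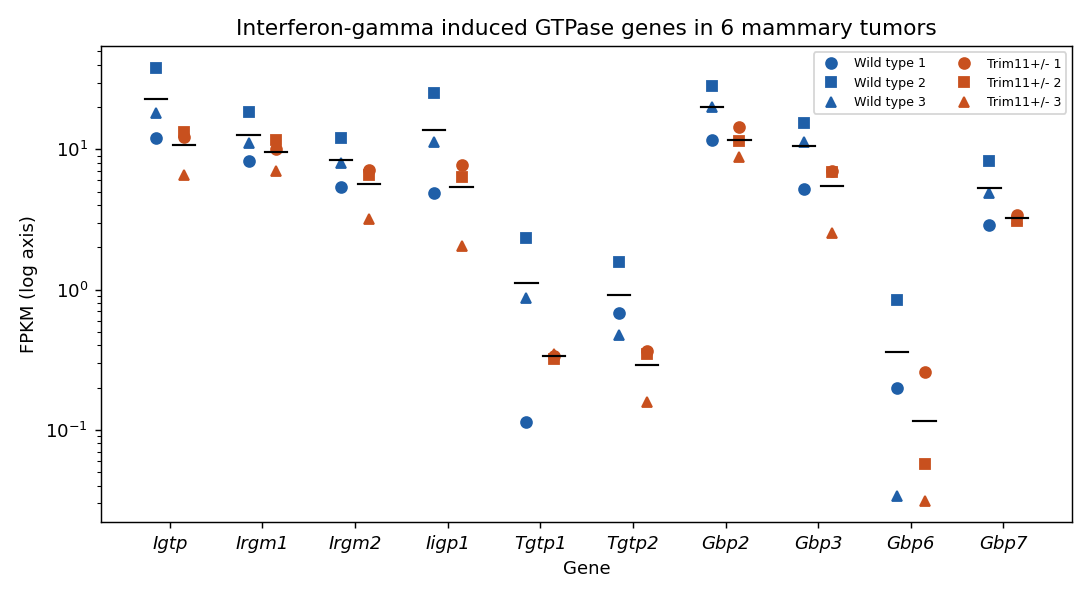
FPKM on a log axis (vertical) of each of the 10 GTPase genes (horizontal) in wild-type tumors (blue) and Trim11+/- tumors (orange), where symbols mark the number of the tumor and black bars the mean of 3 tumors. Wild-type tumor 2 (blue squares) is the highest for all 10 genes, and the genotypes do not overlap only for Tgtp2.

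FPKM is a read number per gene length and library size, so levels can be compared between genes. Igtp had the highest mean over the 6 tumors (16.8 ± 11.2 FPKM, SD, n = 6) and Gbp2 the next (15.8 ± 7.28), but Igtp was above Gbp2 in 3 of the 6 tumors, so their order was not settled. Irgm1 (11.1 ± 4.04), Iigp1 (9.62 ± 8.30), Gbp3 (8.04 ± 4.57) and Irgm2 (7.04 ± 2.95) followed. From Gbp2 down to Irgm2, each gene was above the next in only 3 to 5 of the 6 tumors. Irgm2 was above Gbp7 (4.28 ± 2.07 FPKM), and Gbp7 above Tgtp1 (0.720 ± 0.829 FPKM), in 6 of 6 tumors. Tgtp2 (0.601 ± 0.507 FPKM) was below Tgtp1 in 3 of 6 tumors, and Gbp6 (0.237 ± 0.311 FPKM) was below Tgtp2 in all 6.

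The nucleotide-binding loop (Walker A motif) separates the 2 IRG classes in the coding sequence, and it is shown to set the members apart before their values are given. Each stretch of 48 bases was cut from the annotated transcripts of mm10, runs 5' to 3' along the coding strand, and lies within 1 exon of the coding sequence. The codon in capitals is that of the methionine of the GMS class or of the lysine of the other members.
Igtp: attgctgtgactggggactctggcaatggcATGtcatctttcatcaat
Irgm1: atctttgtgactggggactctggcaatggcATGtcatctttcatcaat
Irgm2: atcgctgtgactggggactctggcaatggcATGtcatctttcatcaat
Tgtp1: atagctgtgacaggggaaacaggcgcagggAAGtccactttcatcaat
Tgtp2: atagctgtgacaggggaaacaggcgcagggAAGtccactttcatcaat
Gbp2: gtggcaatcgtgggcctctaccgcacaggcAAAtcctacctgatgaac
Gbp3: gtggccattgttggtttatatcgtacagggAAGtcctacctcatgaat
Gbp6: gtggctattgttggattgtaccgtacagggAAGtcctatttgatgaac
Gbp7: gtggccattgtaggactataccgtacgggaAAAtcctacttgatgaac

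The stretches lie at chr11:58206263-58206310 (+) for Igtp, chr11:48866749-48866796 (-) for Irgm1, chr11:58219683-58219730 (+) for Irgm2, chr11:48987655-48987702 (-) for Tgtp1 and chr11:49059522-49059569 (-) for Tgtp2. Those of the GBPs are at chr3:142623814-142623861 (+) for Gbp2, chr3:142561866-142561913 (+) for Gbp3, chr5:105290859-105290906 (-) for Gbp6 and chr3:142534643-142534690 (+) for Gbp7. The codon is ATG in the 3 GMS genes. In Tgtp1, Tgtp2, Gbp3 and Gbp6 it is AAG, as in Iigp1, whose stretch is not shown, and in Gbp2 and Gbp7 it is AAA. The stretches of Tgtp1 and Tgtp2 are the same letter for letter.

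Sequence that members share limits how far reads can be given to 1 gene. The coding sequences of Tgtp1 and Tgtp2 differ at 4 of 1248 bases, an identity of 99.7%, and 73.1% of all 100-base stretches of Tgtp1 and 76.8% of those of Tgtp2 also occur in another gene, mostly in each other. Of the 100-base stretches of Gbp6, 64.5% occur in another gene, among them Gm43302 and Gbp10. The share was 10.01% for Gbp7, 5.16% for Igtp, 3.01% for Irgm2, 0.69% for Gbp3, and 0 for Irgm1, Iigp1 and Gbp2. The single levels of Tgtp1, Tgtp2 and Gbp6 are therefore uncertain, while the GMS genes are only 63.1% to 67.3% identical to each other over their coding bases. The methods give paired reads longer than 100 bases, so these shares of stretches are not shares of reads that could not be assigned. Igtp and Irgm2 overlap on the same strand of chromosome 11, so reads in their common exons could be counted for either.

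Igtp, a GMS regulator also called Irgm3, had 12.1, 38.3 and 18.2 FPKM in wild-type tumors 1 to 3 and 12.3, 13.2 and 6.58 FPKM in Trim11+/- tumors 1 to 3. Wild-type tumors 2 and 3 were above every Trim11+/- tumor, but wild-type tumor 1 lay below 2 of them, so the genotypes overlapped. The means were 22.9 ± 13.7 FPKM (SD, n = 3) and 10.7 ± 3.60 FPKM (SD, n = 3), a ratio of 0.468. The log2 fold change was -0.93 (SE 0.43, 95% interval -1.97 to 0.11, limma adjusted p = 0.722; two-sided exact permutation test p = 0.3, where 3 tumors against 3 can give no less than 0.1).

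Irgm1, the GMS protein also needed for the survival of interferon-exposed lymphocytes and macrophages, varied least among the members, with a range of 2.65-fold. It had 8.24, 18.5 and 11.2 FPKM in wild-type tumors and 10.1, 11.6 and 6.98 FPKM in Trim11+/- tumors. Only wild-type tumor 2 was above all of the other genotype, and wild-type tumor 1 was below 2 Trim11+/- tumors. Its log2 fold change was -0.32 (SE 0.30, 95% interval -1.05 to 0.40, limma adjusted p = 0.852, exact permutation p = 0.5).

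Irgm2, the third GMS gene, had 5.36, 12.02 and 8.02 FPKM in wild-type tumors and 7.09, 6.56 and 3.20 FPKM in Trim11+/- tumors. The tumors were ordered as for Igtp at both ends, with wild-type tumor 2 highest and Trim11+/- tumor 3 lowest, and the genotypes overlapped through wild-type tumor 1. Between genotypes, Irgm2 had a log2 fold change of -0.51 (SE 0.34, limma adjusted p = 0.797, exact permutation p = 0.4).

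Iigp1, an effector of the GKS class that oligomerizes on parasite vacuoles, varied most among the 7 members that had at least 50 reads in every tumor. It had 4.90, 25.4 and 11.2 FPKM in wild-type tumors 1 to 3 and 7.79, 6.39 and 2.05 FPKM in Trim11+/- tumors 1 to 3, a range of 12.4-fold. Wild-type tumors 2 and 3 were again above the other genotype, and wild-type tumor 1 again below 2 Trim11+/- tumors. The log2 fold change was -1.09 (SE 0.62, 95% interval -2.57 to 0.39, limma adjusted p = 0.756, exact permutation p = 0.3).

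Tgtp1 and Tgtp2 encode nearly the same GKS effector and were the lowest of the IRGs. Tgtp1 had 0.114, 2.33 and 0.870 FPKM in wild-type tumors, from 4, 76 and 28 reads, and 0.337, 0.319 and 0.348 FPKM in Trim11+/- tumors, from 12, 9 and 12 reads. For Tgtp2 the values were 0.685, 1.57 and 0.475 FPKM in wild-type tumors, from 22, 47 and 14 reads, and 0.367, 0.348 and 0.158 FPKM in Trim11+/- tumors, from 12, 9 and 5 reads. Tgtp2 was the only member whose genotypes did not overlap, which 6.78% of all genes tested did in the same direction, and at these read numbers the gap between wild-type tumor 3 and Trim11+/- tumor 1, 14 against 12 reads, is within counting error. The log2 fold changes were -0.52 for Tgtp1 (SE 0.39, limma adjusted p = 0.820, exact permutation p = 0.4) and -0.53 for Tgtp2 (SE 0.25, limma adjusted p = 0.726, exact permutation p = 0.1). With a pseudocount of 1, these understate the ratio of genes below 1 FPKM.

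Since their reads cannot be told apart well, the pair was also summed. Tgtp1 and Tgtp2 together had 0.799, 3.91 and 1.35 FPKM in wild-type tumors and 0.704, 0.668 and 0.507 FPKM in Trim11+/- tumors. The lowest wild-type tumor was above the highest Trim11+/- tumor, but by 26 reads against 24. The share of the pair's reads that was counted for Tgtp1 was 15.4% in wild-type tumor 1 (95% Wilson interval 6.15% to 33.5%), 61.8% in wild-type tumor 2 (53.0% to 69.9%) and 66.7% in wild-type tumor 3 (51.6% to 79.0%). In Trim11+/- tumors 1 to 3 it was 50%, 50% and 70.6%, with intervals from 29.0% to 86.7% in all. Wild-type tumor 1 was thus the only tumor with fewer reads counted for Tgtp1 than for Tgtp2, and its interval did not overlap those of the other wild-type tumors but overlapped those of Trim11+/- tumors 1 and 2. These intervals cover counting error only, since reads are not independent molecules.

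**Figure D2:**
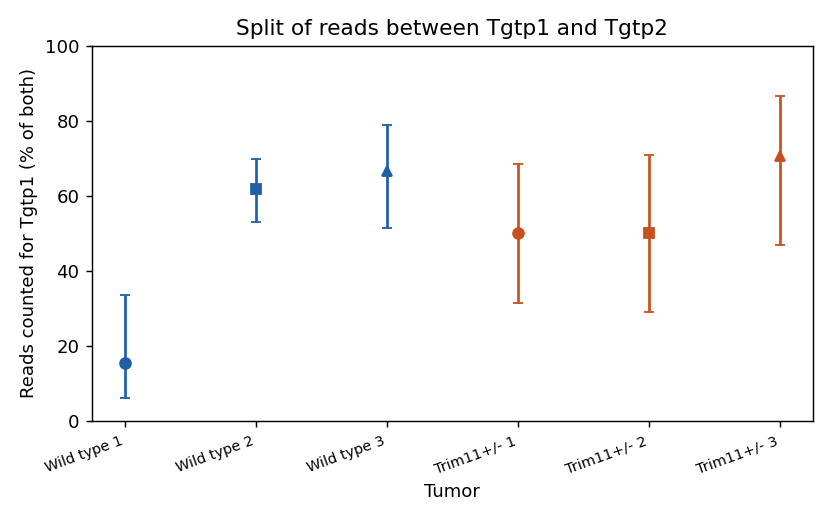
Percentage of the reads of Tgtp1 and Tgtp2 that was counted for Tgtp1 (vertical) in each tumor (horizontal), with 95% Wilson intervals as bars and wild-type tumors in blue. Wild-type tumor 1, at 15.4%, is the lowest, and the other 5 tumors lie between 50% and 70.6%.

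Gbp2, Gbp3 and Gbp7 lie together on chromosome 3, between 142530342 and 142638008. Gbp2, which coats pathogen vacuoles, was the GBP with the highest level. It had 11.6, 28.5 and 20.1 FPKM in wild-type tumors 1 to 3 and 14.4, 11.4 and 8.88 FPKM in Trim11+/- tumors 1 to 3. Wild-type tumors 2 and 3 were above the other genotype, and wild-type tumor 1 lay between Trim11+/- tumors 1 and 2. A log2 fold change of -0.68 was fitted for Gbp2 (SE 0.32, 95% interval -1.46 to 0.09, limma adjusted p = 0.725, exact permutation p = 0.2).

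Gbp3, its neighbor on chromosome 3, had 5.24, 15.4 and 11.2 FPKM in wild-type tumors and 7.03, 6.86 and 2.54 FPKM in Trim11+/- tumors. The wild-type tumors fell on both sides of Trim11+/- tumors 1 and 2. Its log2 fold change was -0.83 (SE 0.45, limma adjusted p = 0.751, exact permutation p = 0.3).

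Gbp7, in the same cluster, had 2.90, 8.25 and 4.88 FPKM in wild-type tumors and 3.38, 3.10 and 3.17 FPKM in Trim11+/- tumors. Its Trim11+/- values lay close together and wild-type tumor 1 was below all 3 of them, which was so for Gbp7 and Tgtp1 alone among the members. For both genes these gaps were within counting error. Gbp7 had a log2 fold change of -0.50 (SE 0.30, limma adjusted p = 0.770, exact permutation p = 0.4).

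Gbp6, on chromosome 5 (chr5:105270702-105293698), had at most 3 reads in 3 of the 6 tumors and was not tested with the other members. It had 0.200, 0.843 and 0.0335 FPKM in wild-type tumors, from 13, 51 and 2 reads, and 0.257, 0.0573 and 0.0313 FPKM in Trim11+/- tumors, from 17, 3 and 2 reads. Wild-type tumor 3, which was the next highest for most members, had only 2 reads of Gbp6 (95% Poisson interval 0.242 to 7.22 reads). With no filter on low levels its log2 fold change was -0.25 (limma adjusted p = 0.836).

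Counting error was small beside the differences between tumors for the other 7 members with at least 50 reads in every library. The fewest reads among them were the 89 of Gbp3 in Trim11+/- tumor 3, a counting error of 10.6%.

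The GMS and GBP classes kept much the same proportions while the total of the 10 genes changed. GMS genes made up between 43.4% and 52.4% of the summed FPKM of the 10 genes in a tumor, and GBPs between 35.0% and 43.1%. GKS genes, mostly Iigp1, ranged more widely, from 7.52% in Trim11+/- tumor 3 to 19.4% in wild-type tumor 2. The ratio of the mean sums, Trim11+/- to wild type, was 0.589 for GMS genes, 0.380 for GKS genes and 0.560 for GBPs, and these ratios were not tested against each other.

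Position on the chromosome has to be set beside these values, because 5 of the 10 members are on the chromosome of the targeted gene. Trim11 lies at chr11:58978093-58991458. Igtp (chr11:58199556-58207591) is 0.771 Mb and Irgm2 (chr11:58199618-58222782) 0.755 Mb from it. Irgm1 (chr11:48861968-48871683), Tgtp1 (chr11:48985327-48994172) and Tgtp2 (chr11:49057194-49064206) are between 9.91 and 10.1 Mb away. Alleles of these 5 genes that were inherited with the deleted Trim11 cannot be told apart from the deletion. The median log2 fold change was -0.52 for the 5 genes on chromosome 11 and -0.76 for the 4 tested members on other chromosomes.

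What the comparison showed depended on which tumors were in it. Without wild-type tumor 1, 6 members were called lower (Igtp, Iigp1, Tgtp1, Gbp2, Gbp3 and Gbp7), when 2.41% of all genes were, and the median log2 fold change of the members was -0.90. The same 6 were called when wild-type tumor 1 and Trim11+/- tumor 3 were both left out, a fit in which 2.56% of all genes were called lower, and their lowest adjusted p was then 0.384. Without wild-type tumor 2 none of the 7 members that still passed the level filter was called, their median was -0.40, and Irgm1 was at -0.03. Without Trim11+/- tumor 3 none was called and the median was -0.49. Leaving out wild-type tumor 3 gave 1 call, Tgtp2.

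**Figure D3:**
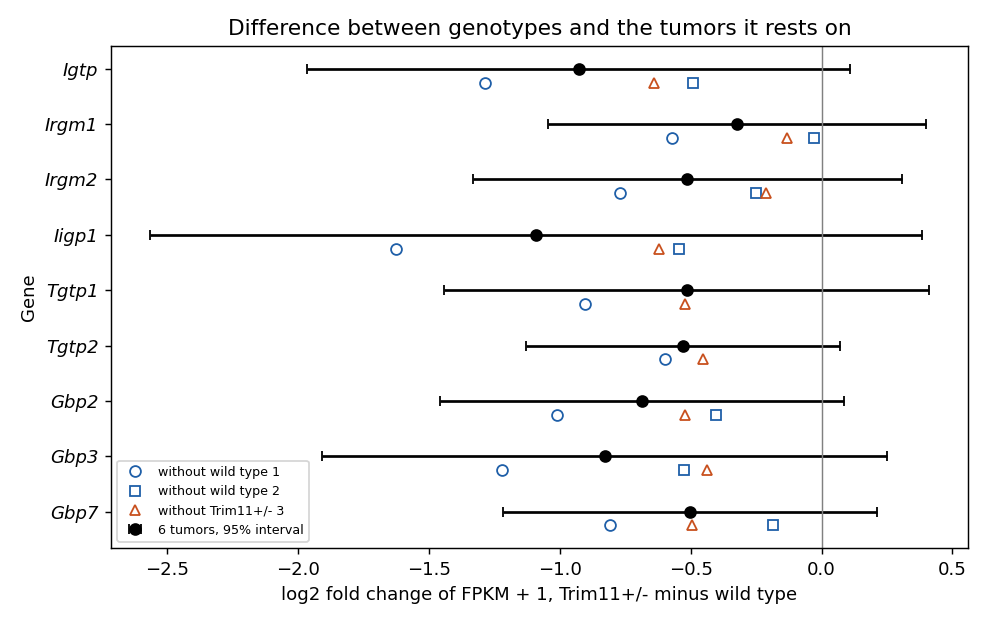
log2 fold change of FPKM + 1, Trim11+/- minus wild type (horizontal), of the 9 tested GTPase genes (vertical), with the 95% limma interval over 6 tumors in black and, in open symbols, the value without 1 tumor. Every interval of the 6 tumors includes 0, and of the 3 open symbols the value without wild-type tumor 1 lies farthest from 0 for each gene, while all values shown are negative.

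Of 24 other genes of these GTPase families, and of the related atlastins, 11 passed the level filter and 13 did not. The log2 fold change was negative for 7 of the 11, with a median of -0.11. The 4 positive values were those of the atlastins and of Irgq. The 7 negative values were those of the other IRGs and GBPs tested, a split seen after the values were known. The relatives of highest level, Atl3 and Atl2, which fuse membranes of the endoplasmic reticulum, and Irgq, an IRG relative without a complete GTP-binding site, had log2 fold changes of 0.07, 0.24 and 0.01. Gm12250 alone was called lower, and it is named here after its values were seen. It encodes the GKS effector Irgb10 and had 2.80, 6.79 and 2.66 FPKM in wild-type tumors and 1.55, 0.893 and 1.02 FPKM in Trim11+/- tumors, without overlap between the genotypes (log2 fold change -1.16, SE 0.32, limma adjusted p = 0.634). Ifi47, another GKS gene chosen after its values were seen, had 4.59, 25.9 and 7.61 FPKM in wild-type tumors and 5.42, 5.61 and 2.33 FPKM in Trim11+/- tumors. It showed the same high wild-type tumor 2 and low Trim11+/- tumor 3 as the members. Gm12250 (chr11:58187739-58189012) and Ifi47 (chr11:49076587-49096974) are also on the chromosome of Trim11. Alleles of these genes inherited with the deleted Trim11 cannot be told apart from the deletion either. Without wild-type tumor 1 the relatives had 3 calls, and without both libraries that stood apart 1.

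The ligand was at the edge of detection. Ifng had 1 read in Trim11+/- tumor 1 (0.0695 FPKM) and 0 reads in the other 5 tumors, and 0 reads allow up to 0.212 to 0.263 FPKM at 3 reads per library. The receptor chains were well expressed in every tumor. Ifngr1 was at 22.0, 33.0 and 30.1 FPKM in wild-type tumors and 27.4, 23.4 and 20.6 FPKM in Trim11+/- tumors, and Ifngr2 stayed between 19.5 and 24.7 FPKM, with log2 fold changes of -0.23 and 0.04. For the kinases Jak1 and Jak2 they were -0.06 and -0.03.

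Irf1, which binds the promoters of many GTPase genes, had a log2 fold change of -0.13 (SE 0.16, 95% interval -0.50 to 0.24). Usf1, a factor in class II transactivator induction which is among the 3 highest genes of this pathway, had -0.13. Over the genes of the pathway, 14 of 16 tested log2 fold changes were negative, with a median of -0.18.

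Other textbook targets of interferon-gamma had 5 of 20 tested genes called lower (25.0%, compared with 1.87% of all genes tested) and 0 higher. Their median log2 fold change was -0.47. Wild-type tumor 2 was the highest for 17 of the 20 and Trim11+/- tumor 3 the lowest for 14, compared with 14.8% and 20.9% of all genes tested. B2m, the light chain of MHC class I, was at 572, 665 and 443 FPKM in wild-type tumors and at 330, 337 and 310 FPKM in Trim11+/- tumors (log2 fold change -0.76, SE 0.17, limma adjusted p = 0.592). The genotypes did not overlap for B2m, and here wild-type tumor 1 lay with the other wild-type tumors, unlike for the GTPases. The other 4 were Tap1, a peptide transporter, the class II genes H2-Aa and H2-Ab1, and Parp14. Tap1, H2-Ab1 and H2-Aa lie together on chromosome 17, between 34187553 and 34287823. Of the other highest genes, the class I heavy chains H2-D1 and H2-K1 had log2 fold changes of -0.42 and -0.44 and were not called. Ido1, named after its values were seen, was the 1 tested gene of this list with a positive value. It had 0, 0.162 and 0.601 FPKM in wild-type tumors and 3.94, 1.62 and 0.306 FPKM in Trim11+/- tumors. Its log2 fold change was 1.06 (SE 0.48, limma adjusted p = 0.714), and it was not called. The count of 5 became 2 without wild-type tumor 2 and 3 without Trim11+/- tumor 3, and it was 5 without both libraries that stood apart.

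Textbook targets of type I interferon had 10 of 26 genes called lower (38.5%, compared with 1.87% of all genes tested) and 0 higher. Values were negative for all 26, with a median of -0.71. Trim11+/- tumor 3 was the lowest for all 26 and wild-type tumor 2 the highest for 23. Isg15, a ubiquitin-like modifier, was at 23.3, 59.9 and 46.6 FPKM in wild-type tumors and at 18.9, 21.03 and 8.47 FPKM in Trim11+/- tumors (log2 fold change -1.36, SE 0.44, limma adjusted p = 0.647). Bst2, which tethers virions, was also lower (log2 fold change -0.85), and Ifi27l2a was not called (-0.47). Wild-type tumor 1 was above all 3 Trim11+/- tumors for 8 of these 26 genes and for 1 of the 10 GTPases, compared with 28.6% of all genes tested. The count of 10 became 2 without wild-type tumor 2 and 5 without wild-type tumor 3, and it was 14 without both libraries that stood apart. Whether the GTPases differ from this list was not tested.

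The proteins that act with the GTPases, in autophagy, ubiquitin marking of vacuoles and the inflammasome, had wild-type tumor 2 highest for 5 and Trim11+/- tumor 3 lowest for 6 of 22 tested genes. Of these 22 genes 9 had a negative log2 fold change, the median was 0.02, and 1 was called lower and 0 higher. That gene was Casp4, an inflammatory caspase that GBPs help to activate, named after its values were seen, with 3.87, 3.95 and 2.58 FPKM in wild-type tumors and 2.28, 2.18 and 1.96 FPKM in Trim11+/- tumors (log2 fold change -0.50, SE 0.17), and the count was 0 without wild-type tumor 2, without Trim11+/- tumor 3, and without both libraries that stood apart. Gabarap, an autophagy ubiquitin-like protein that GBPs and IRGs depend on, had a log2 fold change of 0.16, the autophagy receptor Sqstm1 0.38, and Arhgdia -0.17.

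Among 9485 genes outside the 10 members with a mean of at least 5 FPKM, the profile over the 6 tumors nearest to the median profile of the GTPases was that of Ube2l6. Distance was the root mean square difference of centred log2(FPKM + 1), and it was 0.103 for Ube2l6, which encodes the enzyme that conjugates Isg15 and is itself interferon-inducible. Ube2l6 had 3.62, 9.46 and 6.09 FPKM in wild-type tumors and 5.59, 4.10 and 3.03 FPKM in Trim11+/- tumors. Gm9847, Spns3, Gm15821 and Lix1l came next, at distances between 0.132 and 0.157. By the same measure Gbp2 was the member nearest to the median profile (0.0946) and Iigp1 the farthest (0.468).

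**Figure D4:**
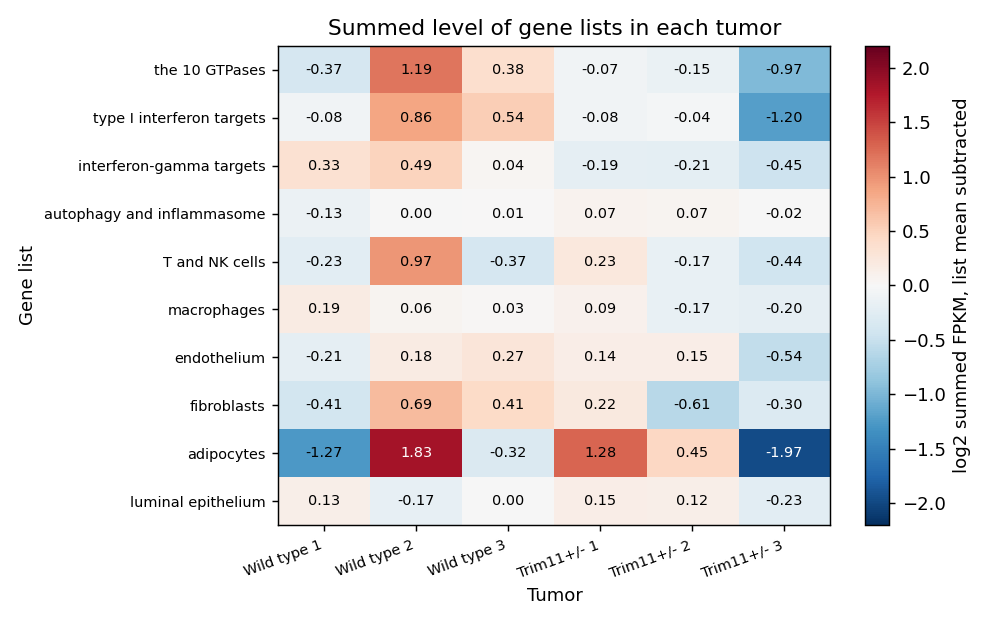
Summed FPKM of gene lists (rows) in each of the 6 tumors (columns) on a log2 scale with the mean of each list subtracted, colored from blue (below the mean) to red (above it). The 10 GTPases run from 1.19 in wild-type tumor 2 to -0.97 in Trim11+/- tumor 3, and both lists of interferon targets, the T and NK cell markers and the adipocyte markers have their highest and lowest sums in the same tumors.

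In bulk tumor RNA, fewer cells of a type cannot be told apart from less RNA per cell. Sums of T and NK cell, adipocyte and dendritic cell markers shared the highest and lowest tumor with the GTPases, and the order between differed. Wild-type tumor 3 had the next highest GTPase sum. Its T and NK cell markers, at 7.18 FPKM, and adipocyte markers, at 30.2 FPKM, were below those of Trim11+/- tumors 1 and 2. Summed over 19 T and NK cell markers, wild-type tumors had 7.90, 18.2 and 7.18 FPKM and Trim11+/- tumors 10.9, 8.26 and 6.82 FPKM, so the extremes were in the same tumors as for the GTPases. Of these markers 8 were tested, and 0 were lower and 1 higher in Trim11+/- tumors (1.87% and 1.74% of all genes tested). The gene called higher was Gzma, named after its values were seen. It had 2, 3 and 2 reads in wild-type tumors and 6, 10 and 11 reads in Trim11+/- tumors. Its means were 0.224 and 0.895 FPKM, so it passed the level filter only through Trim11+/- tumors. The T and NK cell markers of highest level, Gzmb, Trbc2 and Nkg7, had log2 fold changes of -0.08, -0.30 and -0.07. The 6 adipocyte markers also had their highest sum in wild-type tumor 2, at 134 FPKM, and their lowest in Trim11+/- tumor 3, at 9.67 FPKM, and Fabp4, Adipoq and Cidec, which make up most of it, had log2 fold changes of -0.19, -0.31 and 0.10.

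The 8 fibroblast markers were highest in wild-type tumor 2 too, at 362 FPKM, and lowest in Trim11+/- tumor 2, at 146 FPKM. Wild-type tumor 3, at 299 FPKM, and then Trim11+/- tumor 1, at 261 FPKM, followed wild-type tumor 2, as for the GTPases. The 7 dendritic cell markers summed to between 3.12 and 7.07 FPKM, with the same extremes as the GTPases. The 10 macrophage markers ran from 649 FPKM in Trim11+/- tumor 3 to 846 FPKM in wild-type tumor 1, and the 9 endothelial markers from 20.7 to 36.1 FPKM, and none of either list was called. B cell markers summed to at most 0.992 FPKM, neutrophil markers to between 18.3 and 37.3 FPKM with Ly6g at 0 in every tumor and S100a9 called lower, and skeletal muscle markers to between 2.21 and 324 FPKM. Of the 6 basal and myoepithelial markers 5, Krt5 and Krt14 among them, were called lower in Trim11+/- tumors, and their sums did not overlap, at 138 to 331 FPKM in wild-type tumors and 63.3 to 97.1 FPKM in Trim11+/- tumors. The part of these cell types in the levels of the GTPases was not tested.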

How the data were processed

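RNA-Seq libraries of 6 tumors were analysed. Per the labels and methods, reads were trimmed with Cutadapt after quality control by FastQC and aligned to mm10 by HISAT2, and the authors deposited FPKM values in 1 column per tumor. The methods name Cufflinks, but 98.87% of genes (28456 of 28782 with 1 annotation entry and a read in any library) held whole reads, within 0.02, divided by gene length and library total, and reads were recovered this way. Rows that share a symbol were reduced to the highest. Tests used log2(FPKM + 1) in genes with a mean of at least 0.5 FPKM, with limma 3.58.1 (lmFit, eBayes with trend) in R 4.3.3, two-sided, adjusted by Benjamini-Hochberg over 17328 genes. The script was tested on simulated data. The call rule (ratio of 1.5, unadjusted p under 0.05) is that of the methods. The labels give the tumors as separate samples, so p-values measure the spread between these samples. Python 3.11.15, numpy 2.4.6, pandas 2.3.3, scipy 1.17.1, Biopython 1.88 and matplotlib 3.10.9 did the rest. The members and gene lists were chosen with earlier results of these data known. Named genes are the members, Trim11, Ifng, its receptors, kinases and Irf1, the 3 of highest mean FPKM of the lists described and the 5 genes of nearest profile, and others are marked. Promoter and protein sequences, and the human cell line table, were not used here. Results on 1 gene of the pathway are not reported here.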

Additional observations from a re-analysis of the deposited data

How the results depend on the processing

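The log2 fold changes of the 9 tested members and of Trim11 kept their sign under every setting tried that could be fitted for them, and with no filter on low levels all 10 members were negative. No member had an adjusted p under 0.05 under any of these settings. Besides a pseudocount of 0.1, other level filters, 2 scalings between libraries and eBayes without trend, which gave 0 members called, calls changed as follows. With each tumor left out in turn, the members called lower ranged from 0 (without wild-type tumor 2) to 6 (without wild-type tumor 1), the genes called from 272 to 443 higher and from 295 to 467 lower, those with an adjusted p under 0.05 from 0 to 1, and the calls in the lists from 1 to 3 among relatives, 0 to 4 in the interferon-gamma pathway, 2 to 7 among its targets, 2 to 15 among type I interferon targets and 0 to 1 among autophagy and inflammasome genes, where leaving out wild-type tumor 2 gave the lowest count of each list, alone or tied. Leaving out both libraries that stood apart, chosen after the data were seen, gave 6 members, 473 higher genes, 3 pathway genes, 0 autophagy and inflammasome genes and 0 adjusted calls. With no filter on low levels 479 genes were higher and 491 lower, and at a fold of 2 it was 164 and 161, with 0 calls in the pathway, its targets and the autophagy and inflammasome list. limma voom on recovered reads called 1 member (Tgtp2) and 0 genes after adjustment. The cause of these changes was not tested.

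With the replicate number as a block, 1 member was called lower (Igtp, limma adjusted p = 0.975) and 0 genes had an adjusted p under 0.05. The labels share only these numbers, and deviations of same-numbered tumors from their group means correlated at -0.33, 0.038 and -0.13, so the numbers were not taken as pairs.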

Other observations

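Most of the interferon-gamma targets shared the highest tumor of the GTPases, which was wild-type tumor 2 for 17 of the 20 tested. An exception was H2-Eb1, a class II MHC beta chain chosen after its values were seen. It had 29.7, 1.82 and 1.79 FPKM in wild-type tumors 1 to 3 and 1.02, 1.29 and 11.7 FPKM in Trim11+/- tumors 1 to 3, so the high tumors were wild-type tumor 1 and Trim11+/- tumor 3, the libraries that stood apart. H2-K1, a class I heavy chain, was also highest in these tumors, at 274 and 186 FPKM, with the other 4 between 98.1 and 160 FPKM.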
